A study of Sus scrofa with 6 samples.

Results

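Interferon-stimulated genes were examined in the longissimus dorsi, a back muscle, of UCP1 KI and WT pigs. The list of 9 genes holds the transcription factors *STAT2*, *IRF1*, *IRF7* and *IRF9* and the antiviral effectors *MX1*, *ISG15*, *IFIT1*, *IFIT3* and *RSAD2*, given as a list of names. Of these, 8 were paired with an Ensembl identifier among the 30476 genes of the count table, and all 8 passed the filter on low counts. The name table pairs *IFIT3* with no identifier, and its level is not analysed here.

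Type I interferons bind the receptor made of IFNAR1 and IFNAR2, whose kinases JAK1 and TYK2 phosphorylate STAT proteins, STAT2 among them. With IRF9 these form the complex ISGF3, which enters the nucleus and induces the effector genes. Interferon gamma acts through its own receptor and induces IRF1, guanylate-binding proteins and genes of antigen presentation. Many healthy tissues keep a low tonic expression of such genes.

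The 3 UCP1 KI pigs carried *UCP1* under control that confines it to adipocytes, inserted with CRISPR/Cas9, and the 3 WT pigs did not. All 6 were 6 months old, and 1 mRNA library was made from each. The promoter, the sex of the pigs and their relatedness are not given in the sources used here. The genotype was not checked on these counts. The name table holds no identifier for *UCP1*, and the study reports that its RNA-seq found no *UCP1* mRNA in muscle of either genotype. The comparison asks whether an uncoupling protein placed in adipocytes goes with a different interferon program in muscle.

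Counts on genes summed to between 30220951 and 35066624 per pig. Levels are given as CPM, a gene's counts divided by the pig's total and brought to a common scale, with totals corrected by edgeR's TMM factors. The smallest factor was 0.781 (WT replicate 2) and the highest 1.18 (UCP1 KI replicate 2). The 20 most abundant genes took 56.5% of the counts of WT replicate 2 and between 39.1% and 44.8% in the other pigs. The muscle fibre markers *ACTA1*, *CKM*, *DES* and *TNNT3* summed to between 56630 and 98320 CPM in every pig, and the other 5 listed fibre markers had no identifier. Single markers differed more. *TNNT3* was at 4144 CPM in UCP1 KI replicate 2 and 11937 to 27929 CPM in the other pigs, while *DES* was highest in that pig. Gene length does not enter a CPM value, so levels are compared between pigs, and an order of genes by CPM is no order of transcript abundance.

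*STAT2* (ENSSSCG00000000396), the subunit of ISGF3 that carries its activation domain, was at 14.4, 27.6 and 10.8 CPM in UCP1 KI replicates 1 to 3 and at 18.0, 47.7 and 12.6 CPM in WT replicates 1 to 3. Replicate 2 was the highest pig of each group, and the groups overlapped. UCP1 KI pigs averaged 17.6 ± 8.85 CPM and WT pigs 26.1 ± 18.9 CPM (mean ± SD of 3 pigs, here and below). On the log2 scale UCP1 KI against WT, as for every fold change given here, *STAT2* was at -0.57 (standard error, SE, 0.55, 95% interval -1.85 to 0.72) with an edgeR adjusted p of 0.796. It was at 0.20 with WT replicate 2 left out and at -1.06 with UCP1 KI replicate 2 left out.

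*IRF9* (ENSSSCG00000002002), the DNA-binding subunit of the same complex, was at 4.62, 12.7 and 1.96 CPM in UCP1 KI pigs and at 7.14, 3.94 and 2.74 CPM in WT pigs. Here WT replicate 1, and not WT replicate 2, was the highest WT pig. Its log2 fold change was 0.48 (SE 0.67, 95% interval -1.07 to 2.03, adjusted p = 0.861 from edgeR). It rested on UCP1 KI replicate 2, without which it was -0.49.

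*IRF1* (ENSSSCG00000014277), a factor induced by interferon gamma, was at 37.8, 59.8 and 11.3 CPM in UCP1 KI pigs and at 23.5, 69.5 and 13.9 CPM in WT pigs. UCP1 KI pigs averaged 36.3 ± 24.3 CPM and WT pigs 35.6 ± 29.7 CPM. This gave a log2 fold change of 0.028 (SE 0.72, 95% interval -1.63 to 1.69, adjusted p = 0.993 from edgeR). The same leave-outs gave 0.96 and -0.54. Among UCP1 KI pigs alone the highest was at 5.28 times the lowest.

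*IRF7* (ENSSSCG00000012853), which amplifies the production of type I interferon, was at 8.28, 16.8 and 4.11 CPM in UCP1 KI pigs and at 6.56, 33.0 and 8.11 CPM in WT pigs. The UCP1 KI mean of 9.74 ± 6.49 CPM lay below the WT mean of 15.9 ± 14.8 CPM, and only through WT replicate 2. The difference of -0.70 on the log2 scale (SE 0.72, 95% interval -2.38 to 0.97, adjusted p = 0.806 from edgeR) was 0.41 without that pig.

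**Figure D1:**
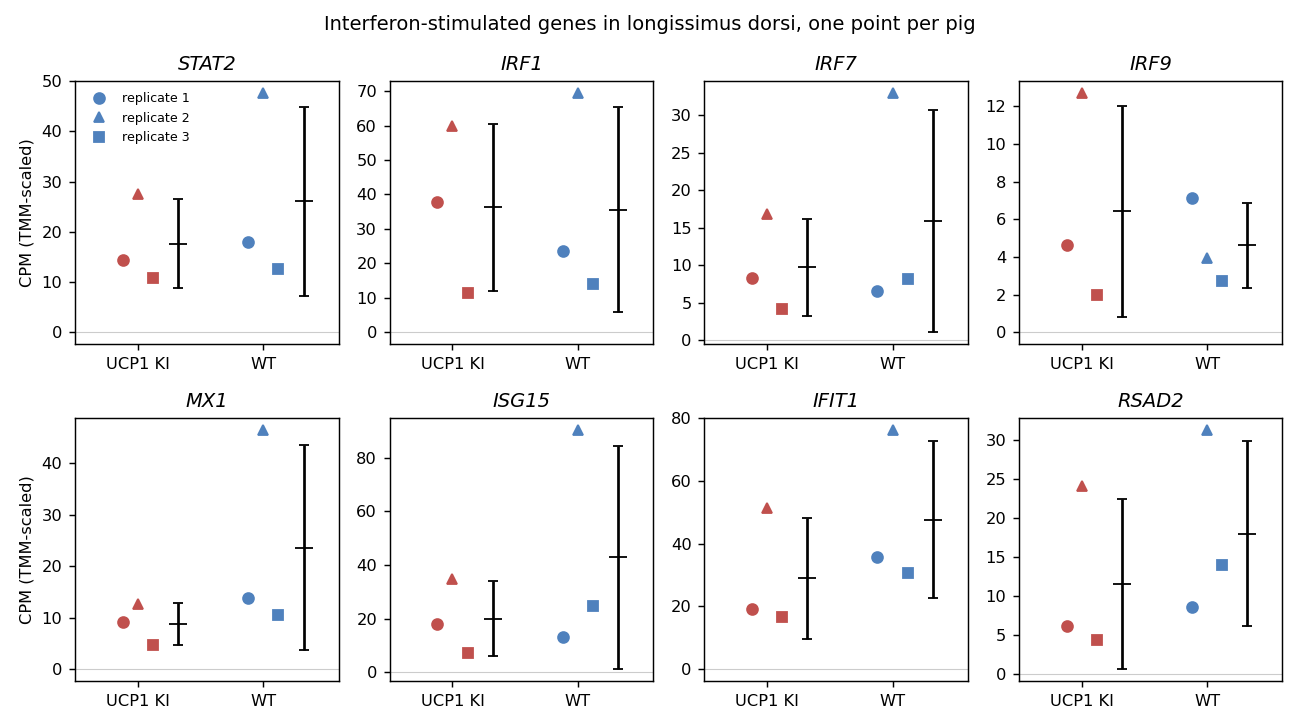
Level of 8 interferon-stimulated genes in each pig, in CPM on TMM-scaled totals (vertical axes, all including 0), with UCP1 KI pigs in red and WT pigs in blue, a marker shape for each replicate number, and black bars for the mean and SD of 3 pigs. WT replicate 2 is the highest pig for 7 of the 8 genes, UCP1 KI replicate 3 is the lowest pig for all 8, and the groups overlap in every panel. With library size alone WT replicate 2 and UCP1 KI replicate 2 are each the highest pig for 4 of the 8.

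*MX1* (ENSSSCG00000012077), a dynamin-like GTPase that blocks viral nucleocapsids, was the member that differed most between the groups. It was at 9.12, 12.6 and 4.58 CPM in UCP1 KI pigs and at 13.8, 46.6 and 10.5 CPM in WT pigs. UCP1 KI replicate 2, the highest of its group, lay above WT replicate 3 and below WT replicates 1 and 2. UCP1 KI pigs averaged 8.76 ± 4.0038 CPM and WT pigs 23.6 ± 19.9 CPM. EdgeR put the log2 fold change at -1.43 (SE 0.62, 95% interval -2.88 to 0.014), with an unadjusted p of 0.0517 and an adjusted p of 0.610. The alternative tool DESeq2 gave an unadjusted p of 0.0215 and an adjusted p of 0.376. Without WT replicate 2 the difference was -0.48. It passed the limits given below, on unadjusted p, without WT replicate 1 (-1.72), WT replicate 3 (-1.78) or UCP1 KI replicate 2 (-1.79).

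*ISG15* (ENSSSCG00000040575), a ubiquitin-like protein that is joined to other proteins, was at 18.2, 34.8 and 7.10 CPM in UCP1 KI pigs and at 13.4, 90.5 and 24.8 CPM in WT pigs. WT replicate 2 was at 6.77 times WT replicate 1, the widest spread of any member within a group. The difference of -1.10 on the log2 scale (SE 0.78, 95% interval -2.91 to 0.72, adjusted p = 0.718 from edgeR) was 0.065 without WT replicate 2.

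*IFIT1* (ENSSSCG00000010452), which binds viral RNA that lacks cap methylation, was at 18.98, 51.3 and 16.5 CPM in UCP1 KI pigs and at 35.9, 76.4 and 30.8 CPM in WT pigs. UCP1 KI replicates 1 and 3 were below every WT pig, and UCP1 KI replicate 2 was above WT replicates 1 and 3. UCP1 KI pigs averaged 28.9 ± 19.4 CPM and WT pigs 47.7 ± 25.0 CPM, which gave a log2 fold change of -0.72 (SE 0.53, 95% interval -1.95 to 0.51, adjusted p = 0.728 from edgeR). With UCP1 KI replicate 2 left out it was -1.44, at an unadjusted p of 0.0182 and an adjusted p of 0.930 from edgeR, and without WT replicate 2 it was -0.20.

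*RSAD2* (ENSSSCG00000008648), the gene of viperin, an enzyme that makes a chain-terminating nucleotide, was at 6.14, 24.1 and 4.34 CPM in UCP1 KI pigs and at 8.57, 31.3 and 14.0 CPM in WT pigs. As for *IFIT1*, UCP1 KI replicates 1 and 3 lay under all WT pigs and UCP1 KI replicate 2 did not. Over all pigs the difference was -0.64 on the log2 scale (SE 0.72, 95% interval -2.31 to 1.03, adjusted p = 0.825 from edgeR). Leaving out UCP1 KI replicate 2 moved it to -1.78, and leaving out WT replicate 2 to 0.029.

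A gene was called when its unadjusted p from edgeR was under 0.05 and its log2 fold change was beyond 0.5 in either direction. Of the 8 members 0 were called, beside 8.19% of the 13402 genes tested (3.84% higher and 4.34% lower in UCP1 KI pigs). Of the 1097 genes called 515 were higher, and with library size in place of TMM factors 929 of 1124 were. DESeq2 called 1 of them, *MX1*, beside 1309 of the 13402 genes, and neither tool gave any of the 8 an adjusted p under 0.05. For 0 of the 8 members were the groups free of overlap, beside 15.3% of all genes tested. Two-sided exact permutation tests on log2(CPM + 1) gave p between 0.2 for *MX1* and 1 for *IRF1*, where 0.1 is the smallest p that 3 pigs against 3 allow. The 95% intervals are wide, so these data do not show that the levels were alike. Since nothing says how the pigs were related, the tests measure the spread between these 6 animals.

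The median log2 fold change of the 8 members was -0.67, beside -0.015 over all genes tested, and 6 of the 8 were below 0. All 4 effectors measured were below 0, whereas *IRF1* and *IRF9* were above. With library size in place of TMM factors the median of all genes moved to 0.24 and that of the members to -0.27, and 6 members were still below 0. The sign of the members' median turned when WT replicate 2 alone was left out. It was then 0.13, and 2 of 8 members, *MX1* and *IFIT1*, were below 0. Leaving out UCP1 KI replicate 2 gave a median of -1.40, with all 8 below 0 and 3 called (*MX1*, *IFIT1* and *RSAD2*), beside 678 of 13782 genes tested. Leaving out both of these pigs gave -0.59, with 7 of 8 below 0 and 2 called (*IFIT1* and *RSAD2*), beside 421 of 13558 genes tested.

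The members varied widely between pigs of a group. Pooled over both groups, the SD of log2(CPM + 1) had a median of 0.97 over the 8 members and 0.33 over all genes tested. UCP1 KI replicate 2 was the highest UCP1 KI pig for all 8, and WT replicate 2 the highest WT pig for 7, *IRF9* being the exception. Both held for 87.5% of the members and for 11.3% of all genes tested, and with library size alone for 7 of 8 members and 7.31% of genes. UCP1 KI replicate 3 was the lowest of the 6 pigs for all 8 members (17.3% of all genes), and for 5 of 8 with library size alone. These counts were made after the values were seen and are a description, and no label says that replicate numbers link one pig to another.

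Across the 6 pigs, 7 of the members rose and fell together. Pearson's r of log2(CPM + 1) lay between 0.716 and 0.978 over the 21 pairs without *IRF9*, and was highest for *IRF7* with *ISG15*. For the 7 pairs with *IRF9* it lay between 0.261 with *MX1* and 0.652 with *IRF1*. The points share their libraries and scaling factors, and WT replicate 2 and UCP1 KI replicate 3 lie at the ends for most members.

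**Figure D2:**
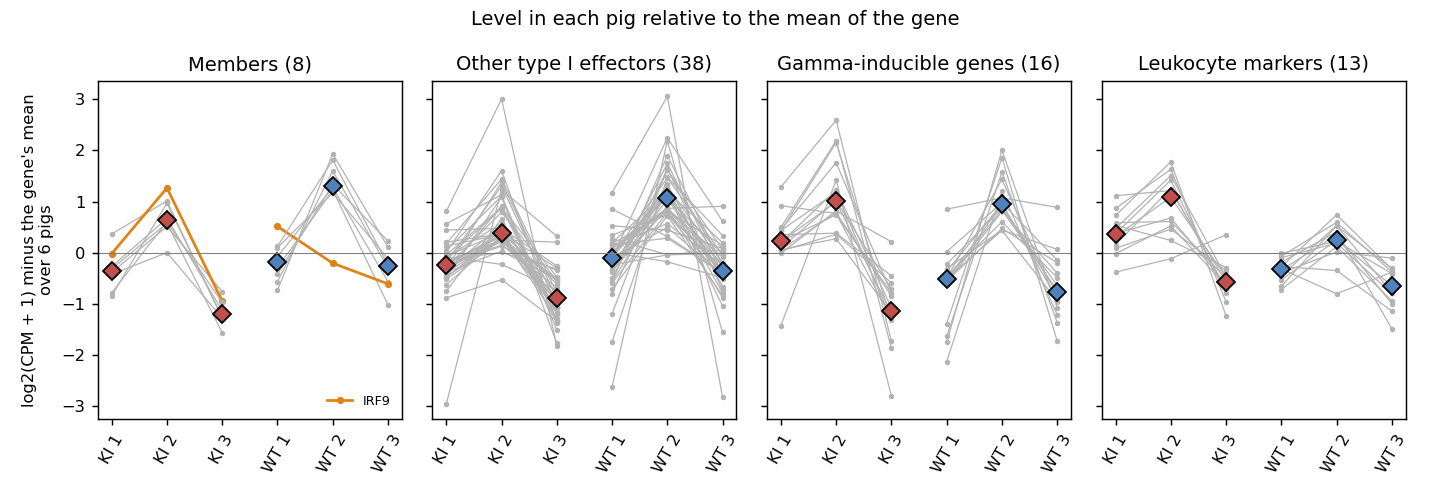
Log2(CPM + 1) of each gene in each pig less the mean of that gene over the 6 pigs (vertical axis), in 4 panels with the number of genes tested in brackets. Grey lines join the values of a gene within a group, the order of replicates having no meaning, diamonds mark the median of the genes (red UCP1 KI, blue WT), and the orange line is *IRF9*. The members' median is 0.64 in UCP1 KI replicate 2, 1.31 in WT replicate 2 and -1.20 in UCP1 KI replicate 3.

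Markers of leukocytes, cells that express many of these genes, moved in part with the same pigs. The 15 leukocyte markers summed to 90.7, 144 and 37.5 CPM in UCP1 KI pigs and to 47.8, 76.5 and 34.2 CPM in WT pigs. Replicate 2 was the highest in both groups for 9 of the 13 that could be tested, and UCP1 KI replicate 2 was above WT replicate 2 in the sum, unlike 7 of the 8 members (4 of 8 with library size alone). Of the defining markers, *PTPRC* was between 1.70 and 10.2 CPM in all pigs, while *MS4A1* was at most 0.386 CPM in any pig. Of the 13, 2 were called higher in UCP1 KI pigs and 0 lower, beside 3.84% and 4.34% of all genes tested. These were *CD3E* at a log2 fold change of 1.84 and *ITGAM* at 1.52 (adjusted p = 0.583 for each from edgeR). For both the groups overlapped, UCP1 KI replicate 3 lying below WT replicate 1. Fibroblast markers summed to 235 to 435 CPM in UCP1 KI pigs and 742 to 1187 CPM in WT pigs. Of the 6, 4 were called lower, beside 4.34% of all genes tested. *DCN* and *PDGFRA* were not called, at log2 fold changes of -0.39 and -0.081 with overlapping groups. Adipocyte markers summed to 282 CPM in WT replicate 2 and 42.8 to 87.3 CPM in the other pigs. Most of this was *FABP4*, at 253 CPM in WT replicate 2 and 83.7 CPM in UCP1 KI replicate 2. *PLIN1* was highest in WT replicate 2 (8.47 CPM) but lowest in UCP1 KI replicate 2 (0.645 CPM). Red blood cell markers summed to 11.6 to 76.5 CPM in UCP1 KI pigs and 106 to 181 CPM in WT pigs, with 1 of 4 tested called lower. The sums of endothelial markers overlapped (304 to 552 and 271 to 518 CPM). Of the 5 tested 1 was called higher, *TEK*, at 38.3, 50.6 and 46.1 CPM in UCP1 KI pigs against 23.4, 19.1 and 16.3 CPM in WT pigs. The part of these cells in the members' levels was not tested, and in whole muscle fewer cells of a type and less RNA per cell cannot be told apart.

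The rest of the pathway was taken from 7 lists of 133 genes, of which 104 had an identifier and 94 were tested. Of these, 4 were called, 1 higher and 3 lower in UCP1 KI pigs, beside 8.19% of all genes tested, and the median log2 fold change over the 94 was -0.10. With library size alone both turned, to 3 higher (*JAK1*, *SOCS3* and *TAPBP*) and 1 lower (*IFI6*) and a median of 0.20, beside 0.24 over all genes. By edgeR 0 of the 94 had an adjusted p under 0.05 (4 had an unadjusted p under 0.05), and by DESeq2 1 had. The count changed with the pig left out, with 0 higher and 10 lower called without UCP1 KI replicate 2, where 289 of all genes were higher and 389 lower. Without WT replicate 2, 7 were called higher and 1 lower, beside 332 and 386 of all genes. The count was 3 higher and 1 lower without UCP1 KI replicate 3, beside 539 and 612 of all genes. Without both replicate 2 pigs it was 2 higher and 6 lower, beside 184 and 237 of all genes.

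Transcripts of the ligands were nearly absent, as far as the 4 of 8 with an identifier show. *IFNB1*, *IFNK* and *IFNE* had no count in any pig, which allows up to 3 counts per library, or 0.0795 to 0.11 CPM, for counting error only. *IFNG*, the type II interferon of T and NK cells, was counted 10 times in UCP1 KI replicate 2, 2 times in WT replicate 1 and never in the other 4 pigs. A difference between the groups was not detectable at this depth.

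None of the 5 receptor genes tested was called, and their log2 fold changes lay between -0.47 and 0.18. *IFNAR1*, a chain of the type I receptor, averaged 34.7 ± 14.4 CPM in UCP1 KI pigs against 37.3 ± 13.8 CPM in WT pigs, and differed by -0.11 on the log2 scale (95% interval -0.99 to 0.78). The chains of the gamma receptor, *IFNGR1* and *IFNGR2*, had log2 fold changes of 0.18 and -0.039.

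Among the 9 kinase, STAT and IRF genes tested, 1 was called higher and 0 lower, beside 3.84% and 4.34% of all genes tested. *JAK1*, a kinase of both receptors, was at 90.7, 117 and 140 CPM in UCP1 KI pigs and at 67.0, 80.9 and 81.3 CPM in WT pigs. No WT pig reached the lowest UCP1 KI pig, and the log2 fold change was 0.60 (SE 0.25, unadjusted p = 0.0432 and adjusted p = 0.603 from edgeR). The call was lost without any one of UCP1 KI replicates 2 and 3 and WT replicates 1, 2 and 3, at 0.44 to 0.65. *IRF8*, a factor of myeloid cells, averaged 170 ± 24.3 CPM in UCP1 KI pigs against 127 ± 1.97 CPM in WT pigs, also without overlap, and was not called (0.42, adjusted p = 0.653 from edgeR). *STAT3*, a factor that many cytokines activate, had a log2 fold change of 0.40 and was not called.

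Of the 17 sensors of microbial molecules and their adaptors tested, 0 were called, with 9 above 0 and 8 below, between -1.51 and 1.84. The highest on the CPM scale, *MAVS*, *TLR7* and *MYD88*, had log2 fold changes of 0.36, 0.36 and 0.20 with overlapping groups. The lowest log2 fold change, chosen after the values were seen, was that of *ZBP1*, a sensor of Z-form nucleic acid, at 2.04, 3.48 and 1.17 CPM in UCP1 KI pigs and 4.33, 12.3 and 2.47 CPM in WT pigs. EdgeR gave it an unadjusted p of 0.0511 and an adjusted p of 0.610, and DESeq2 an unadjusted p of 0.0232 and an adjusted p of 0.387.

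Among 9 negative regulators, 1 was called lower and 0 higher, beside 4.34% and 3.84% of all genes tested. *USP18*, which removes ISG15 from proteins and holds back the type I receptor, was at 3.82, 6.09 and 3.39 CPM in UCP1 KI pigs and at 6.23, 14.2 and 8.14 CPM in WT pigs, with every UCP1 KI pig under every WT pig. The difference of -1.10 on the log2 scale (SE 0.39, unadjusted p = 0.0246 and adjusted p = 0.583 from edgeR) was not called with library size alone (-0.77) or without WT replicate 2 (-0.70), nor without UCP1 KI replicate 1 or 3, where it was at or beyond -0.94. *SOCS3*, an inhibitor of JAK kinases, was at 165, 89.5 and 5.01 CPM in UCP1 KI pigs against 19.6, 34.5 and 11.3 CPM in WT pigs. UCP1 KI replicate 3 was the lowest of all pigs, and the difference of 1.99 on the log2 scale had an edgeR adjusted p of 0.636. Without UCP1 KI replicate 3 it was 2.55 and called, and DESeq2 and library size alone called it too. *PTPN11* and *IRF2BP2* had log2 fold changes of 0.48 and -0.27.

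The 38 other type I effectors held 2 that fell and 0 that rose, with 28 of 38 below 0 and a median of -0.48. *IFI6*, a small membrane protein induced by type I interferon, was at 28.3, 36.5 and 20.4 CPM in UCP1 KI pigs and at 49.1, 255 and 81.8 CPM in WT pigs, with no overlap. The difference of -2.18 on the log2 scale (SE 0.60, 95% interval -3.58 to -0.78) had an unadjusted p of 0.00742 and an adjusted p of 0.583 from edgeR, and an adjusted p of 0.0312 from DESeq2. *IFI6* was called in each of the other settings tried, between -2.58 without WT replicate 1 and -1.21 without WT replicate 2. *EIF2AK2*, the kinase PKR that stops translation in infected cells, was at 13.6, 12.2 and 8.34 CPM in UCP1 KI pigs and at 15.4, 26.2 and 16.1 CPM in WT pigs. The difference was -0.76 on the log2 scale (SE 0.31, unadjusted p = 0.0443 and adjusted p = 0.603 from edgeR), and it was not called with library size alone (-0.48) or without UCP1 KI replicate 2 (-0.81), UCP1 KI replicate 3 (-0.57) or WT replicate 2 (-0.47). *HERC6*, a HECT and RLD domain protein, had a log2 fold change of -0.75 with overlapping groups.

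Of the 16 gamma-inducible genes tested, 0 were called, 11 were above 0, and the median was 0.27. Without UCP1 KI replicate 2, *CIITA* was called lower (-3.13). Without WT replicate 2, *TAPBP*, *WARS1*, *GBP2* and *CXCL9* were called higher (1.13 to 3.52). *GBP1*, a guanylate-binding protein, was at 57.0, 187 and 10.3 CPM in UCP1 KI pigs and at 11.2, 164 and 18.6 CPM in WT pigs. Replicate 2 was the highest pig of both groups for 15 of these 16 genes and for 31 of the 38 type I effectors. The chemokine gene *CXCL10*, which both kinds of interferon induce, was likewise highest in the replicate 2 pig of each group, with 20.5, 97.5 and 2.49 CPM in UCP1 KI pigs and 0.992, 54.8 and 3.17 CPM in WT pigs. The difference of 1.03 on the log2 scale had an SE of 1.53, and without WT replicate 2 it was 4.27, at an unadjusted p of 0.0269 and an adjusted p of 0.896 from edgeR. *PSME2* and *CD74*, of antigen processing and presentation, had log2 fold changes of 0.11 and 0.17.

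**Figure D3:**
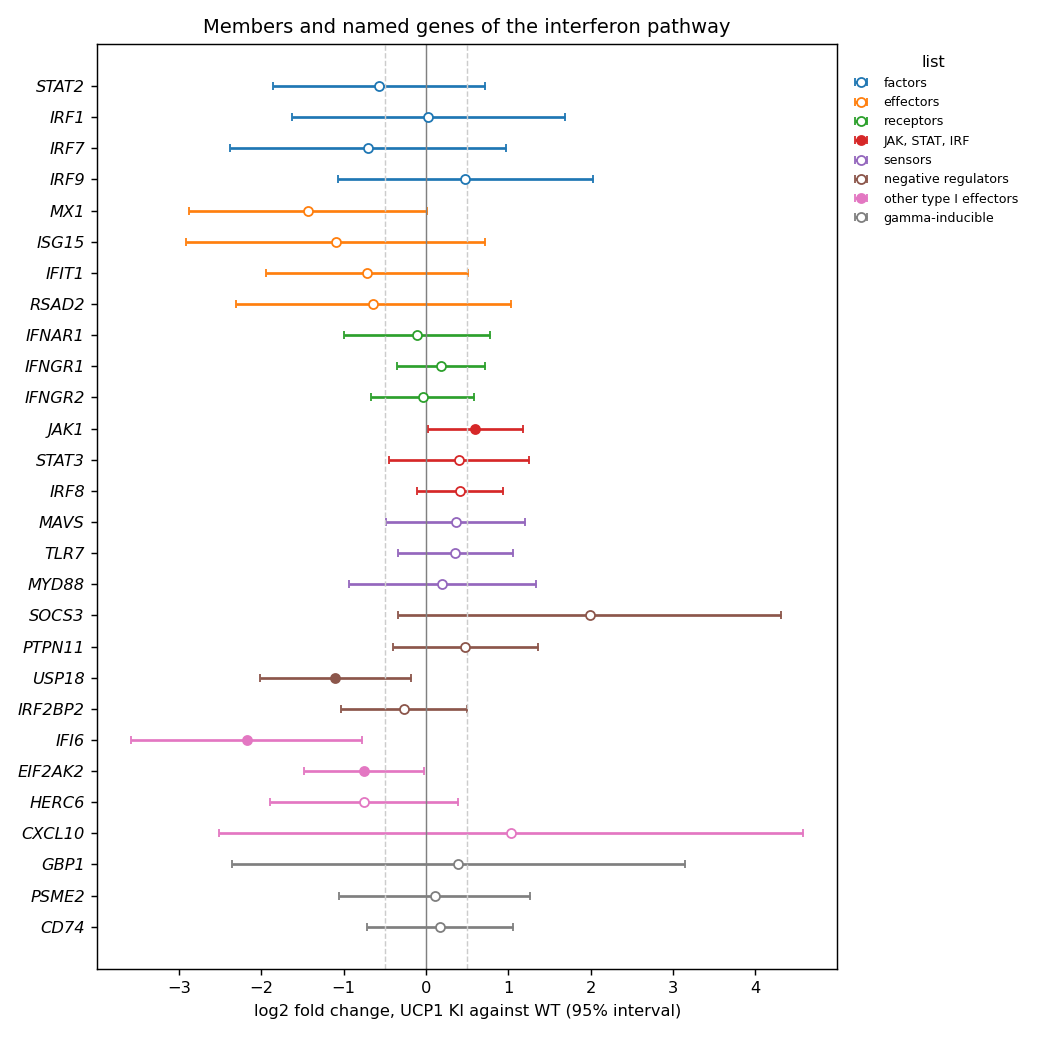
Log2 fold change of UCP1 KI against WT with its 95% interval (horizontal axis) for the 8 members and for the named genes of the other lists, coloured by list, with filled circles for called genes and dashed lines at -0.5 and 0.5. The called genes are *IFI6* at -2.18, *USP18* at -1.10, *EIF2AK2* at -0.76 and *JAK1* at 0.60, and the intervals of all 8 members include 0.

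Among 11295 other genes with a symbol, the 10 whose log2(CPM + 1) over the 6 pigs followed the mean standardized level of the 4 effectors most closely had Pearson's r of 0.977 to 0.995. They were *PRR13*, *IFIT5*, *MX2*, *ISG12(A)*, *CRYBG1*, *ADM*, *HERC6*, *PLPP5*, *DHX58* and *NSG1*. *PRR13*, at the top, ranged only from 43.8 to 66.7 CPM over the 6 pigs, whereas *MX2* ranged from 6.91 to 45.5 CPM. Of the 10, 4 were on the interferon lists, which hold 0.832% of the genes ranked. The lists were chosen with earlier results of these data known, so this is a description. None of the 10 was called, and their log2 fold changes lay between -1.12 for *DHX58* and -0.18 for *PRR13*. They were chosen for likeness to effectors that were themselves below 0 and not called, so this is no separate result.

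In the RefSeq annotation of Sscrofa11.1, the build that the submitters' processing notes name, the members lie on 7 chromosomes. *STAT2* spans chr5:21733030-21748960, *IRF9* chr7:75133800-75139641 and *MX1* chr13:204843049-204868927. *IRF1* (chr2:134776122-134783646) and *IRF7* (chr2:372235-375572) share a chromosome, and *RSAD2* lies at chr3:128880853-128897809. *ISG15* takes up chr6:63363201-63364211, and *IFIT1* chr14:101237403-101249486 beside *IFIT2* and *IFIT3*. Spans of other genes overlap 4 of the measured members, namely *IL23A* at *STAT2*, *SLC22A5* at *IRF1*, *LIPA* at *IFIT1* and LOC110261384 at *ISG15*. How the counting treated strand is not given in the sources used here, so reads in shared stretches may belong to either gene.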

How the data were processed

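RNA-seq of longissimus dorsi from 3 UCP1 KI and 3 WT pigs was analysed. The submitters' processing notes name FastQC 0.11.2, Trimmomatic 0.36, HISAT2 2.0 and StringTie 1.3.3b with the build Sscrofa11.1. Values in the table that the authors deposited are unnormalized read counts for each Ensembl gene. The annotation release and the program that counted reads are not given in the sources used here.

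Counts were fitted in R 4.3.3 with edgeR 4.0.16 (filterByExpr by group, TMM, genotype alone, quasi-likelihood F test, Benjamini-Hochberg adjustment over all genes tested). The limits of 0.05 and 0.5 follow the study, which does not say whether its p was adjusted. Standard errors are the log2 fold change over the root of F. DESeq2 1.42.0 was an alternative. The code was tested on simulated counts.

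Identifiers were paired with symbols through an Ensembl name table, and positions were taken from RefSeq by symbol. No sequences were used. The members, the 7 pathway lists and the markers were chosen with earlier results of these data known. Named pathway genes were those called and, per list, the 3 with the highest mean CPM, of which 1 is not reported here. Genes like the effectors were the 10 with the highest r.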

Additional observations from a re-analysis of the deposited data

How the results depend on the processing

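With each pig left out in turn, and with both replicate 2 pigs left out together (an alternative chosen after seeing the data), the number of genes called was 421 to 1541, of members 0 to 3, and of the other interferon genes 3 to 10. Over the same fits the log2 fold change was -1.06 to 0.20 for *STAT2*, -0.54 to 0.96 for *IRF1*, -1.36 to 0.41 for *IRF7*, -0.59 to 0.94 for *IRF9*, -1.76 to 0.065 for *ISG15* and -1.78 to 0.029 for *RSAD2*, and those of *MX1* and *IFIT1* stayed below 0. Without UCP1 KI replicate 2, 678 genes and 3 members were called, and without WT replicate 2, 718 genes and 0 members. DESeq2, all genes with any count, and a minimum of 10 counts in every pig each called 1 member, *MX1*, beside 1309 of 13402, 1360 of 20062 and 999 of 11794 genes tested, and DESeq2 called 7 of the 94 other interferon genes. Median-of-ratios factors and library size alone called 0 members and 4 other genes each, 1 higher and 3 lower with the first and 3 higher and 1 lower with the second. With library size alone 929 of the 1124 genes called were higher, against 515 of 1097 with TMM. With the replicate number as a block 2 members (*MX1* and *IFIT1*) and 12 of the 94 other interferon genes were called, beside 1114 of 13402 genes tested. Deviations of same-numbered pigs correlated at 0.00383, 0.0943 and 0.283, and UCP1 KI replicate 2 correlated better with WT replicate 1 (0.101), so pairing by number was not shown, and no label says how the numbers were given. In none of these 6 settings that keep all pigs did a member change direction. The cause of these shifts was not tested. The members' counts were between 74 and 2477 per pig, and what depth adds to their spread was not tested.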
